A study of Mus musculus with 2 samples.

Results

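The 9 genes described here encode the bone morphogenetic protein (BMP) ligands of the intestinal stroma and a protease that shares their name: Bmp1, Bmp2, Bmp3, Bmp4, Bmp5, Bmp6, Bmp7, Gdf6 and Gdf10. They were taken by name and are 9 of the 31053 genes of the count matrices. All 9 had at least 1 unique molecular identifier (UMI, a counted RNA molecule) in the cells of both libraries, as did 22104 genes in the ApcMin library and 22668 genes in the VApcMinL library. On mouse build GRCm38, 3 members lie on chromosome 14: Bmp1 (ENSMUSG00000022098, chr14:70474558-70520234, minus strand), Bmp4 (ENSMUSG00000021835, chr14:46383520-46390669, minus strand) and Gdf10 (ENSMUSG00000021943, chr14:33923587-33937983, plus strand). Bmp2 (ENSMUSG00000027358, chr2:133552159-133562885, plus strand) and Bmp7 (ENSMUSG00000008999, chr2:172868012-172940321, minus strand) share chromosome 2. The others are Bmp3 (ENSMUSG00000029335, chr5:98854415-98884396, plus strand), Bmp5 (ENSMUSG00000032179, chr9:75775364-75900310, plus strand), Bmp6 (ENSMUSG00000039004, chr13:38345107-38500302, plus strand) and Gdf6 (ENSMUSG00000051279, chr4:9844372-9862345, plus strand). The GENCODE annotation lists all 9 as protein-coding.

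BMPs are secreted members of the TGF-beta family that bind type I and type II serine/threonine kinase receptors, which phosphorylate Smad1, Smad5 and Smad9 and switch on targets such as the Id genes. In the intestine BMP activity is known to be low around the crypt base, where stromal antagonists such as gremlin and noggin hold it down, and to be higher along the villus, where it limits stem cell self-renewal and favors differentiation. Fibroblasts below the epithelium are known sources of BMP ligands, and those around the crypt base are known sources of BMP antagonists.

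The study sorted stromal cells from the intestinal lamina propria of C57BL/6 mice, 11 weeks old by the labels although the study's text also gives another age, and profiled them with droplet-based 3′ RNA sequencing, asking how epithelial Lef1 bears on the surroundings of intestinal tumors. The ApcMin library came from ApcMin/+;Lef1 +/+ mice, and the VApcMinL library from ApcMin/+;Lef1 fl/fl; Villin-Cre mice. Both groups thus carry the ApcMin allele, which gives rise to intestinal adenomas, and in the second group Lef1 was deleted constitutively by a Cre recombinase whose Villin promoter is active in intestinal epithelium, not in fibroblasts. There was 1 library per genotype and the number of mice behind each was not stated.

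The ApcMin library held 93203061 UMIs and the VApcMinL library 101609269. Barcodes with at least 3000 UMIs numbered 6674 and 7100, and after leaving out 75 and 531 of them with more than 20% mitochondrial UMIs, 6599 and 6569 cells remained. The cells held a median of 10849 UMIs and 2745 genes in the ApcMin library and of 9111 UMIs and 2857 genes in the VApcMinL library, and they contained 83.6% and 74.4% of all UMIs. The libraries shared 18 cell barcodes, 0.273% and 0.274% of their cells. Levels below are CPM, the UMIs of a gene scaled to a common total of its cell class, with exact Poisson 95% intervals in parentheses, and differences are log2 ratios of CPM, VApcMinL over ApcMin, with exact conditional binomial 95% intervals. These intervals cover counting error only, and with 1 library per genotype no test was possible: a difference between the libraries cannot be told apart from a difference between mice or dissections. Levels of the members were not compared with each other, and the most abundant gene of a list below is the one with most UMIs.

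Lef1, the deleted gene, checks the labels. In epithelial-like cells it was at 7.58 CPM (4.75–11.5) in 48 ApcMin cells, from 22 UMIs, and at 1.94 CPM (1.30–2.79) in 346 VApcMinL cells, from 29 UMIs. The level was lower in the library with the deletion, as its label says, but Lef1 in empty droplets was at 11.8 and 44.5 CPM, not below the epithelial level in either library, and the position of the 3′ reads relative to the deleted part of the gene was not analysed, so the check is weak. Fibroblast-like cells held almost no Lef1, at 0.0645 and 0.360 CPM, against 49.8 and 20.9 CPM in the T cell or innate lymphoid class.

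Clustering, from which all genes of the BMP lists were left out, gave fibroblast-like cells as the largest class, named from Pdgfra, the fibrillar collagens and related markers. They made up 3354 cells or 50.8% (49.6 to 52.0, exact Clopper-Pearson interval) in the ApcMin library and 3696 cells or 56.3% (55.1 to 57.5) in the VApcMinL library. The gate excluded Epcam-, CD45- and Ter119-positive cells, yet erythroid-like cells were 20.7% and 5.57% of the libraries, and epithelial-like, B, plasma, T and myeloid cells also came through it. Blood endothelial-like cells numbered 125 and 488, lymphatic endothelial-like cells 38 and 175, smooth muscle-like cells 35 and 49, glia-like cells 28 and 172 and mesothelial-like cells 7 and 34. The smooth muscle class also had 3 pericyte markers among its 10 leading genes. Sorting and dissection can set all of these shares.

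Clustering the fibroblast-like cells again gave 6 subsets with marker names and 3 without. The Pi16 adventitial-type subset had 1140 and 766 cells (34.0% and 20.7% of the fibroblast-like cells), the Lpl Penk Plau subset 893 and 711, the Ackr4 trophocyte-like subset 508 and 684, the Adamdec1 subset 362 and 791 (10.8% and 21.4%) and the Scg2 Chodl Fibin subset 165 and 148. The subepithelial subset, with Wif1, Itgbl1 and Sox6 among its leading genes, was small in the ApcMin library, at 33 cells (0.984%), and larger in the VApcMinL library, at 204 cells (5.52%). A subset led by Mmp10, with 118 and 317 cells (3.52% and 8.58%), stayed unnamed. The subepithelial markers Agt and Nrg1 were among its top 10 genes by fold and 3 of the 8 subepithelial markers were detected, but the share of cells with a UMI of them, averaged over the 8 markers, was only 0.0472 above that in the other subsets, under a minimum of 0.1 that was set after the clusters were seen. The remaining subsets were led by genes of other lineages, Cd74 with 57 and 61 cells and Hbb-bt with 78 and 14. Different clusters held most fibroblast-like cells, cluster 0 with 37.0% of them in the ApcMin library and cluster 2 with 31.1% in the VApcMinL library.

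The libraries also stood apart in genes that mark the position of the mesenchyme along the gut. Barx1 and Six2, transcription factors known from stomach mesenchyme, had a UMI in 653 ApcMin fibroblast-like cells (19.5%, 18.1 to 20.9) and in 49 VApcMinL cells (1.33%, 0.982 to 1.75). Barx1 was at 38.4 and 2.16 CPM, Six2 at 10.5 and 0.841 CPM, and Nkx2-3, the most abundant of the 9 regional genes listed, at 130.2 and 223 CPM. The list summed to 202 and 244 CPM, with 8 of its 9 genes detected and Hoxd10 at 0 in both libraries. These cells lay in some subsets more than in others: they were 34.3% of the ApcMin cells of the Lpl Penk Plau subset, 27.3% of the subepithelial, 24.0% of the Pi16 and 17.8% of the Mmp10-led subset, but 1.38% of the Ackr4 subset and 3.59% of the Adamdec1 subset. The 10 dissociation-response genes listed, all detected and with Egr1 the most abundant, summed to 19574 and 21634 CPM. Levels below include the cells with a Barx1 or Six2 UMI, ratios between the libraries in the subsets with many of them are given with and without them where enough cells were left, and the part of the region sampled in the other differences was not tested.

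Most UMIs of every member came from the clusters of fibroblast-like cells. Their share was over 50% for all 9 members in both libraries, from 74.9% for Bmp3 to 97.4% for Gdf10 in the ApcMin library and from 53.5% for Bmp3 to 97.0% for Bmp5 in the VApcMinL library. This depends on the clusters: with each cell classed singly by its own markers, 11 of 18 pairs of a member and a library had most of their UMIs in fibroblast-like cells, and the class or subset with the highest level was the same in 4 of 18. For Bmp4 it was 96.4% and 94.4%, and for Bmp2 86.8% and 77.2%. Among the other classes, epithelial-like cells held 20.25% and 40.0% of the Bmp3 UMIs and 2.12% and 17.9% of the Bmp2 UMIs, and blood endothelial-like cells 3.80% and 14.2% of the Bmp6 UMIs. Within the fibroblasts the source of a ligand differed between the libraries. The Pi16 subset gave 51.7% of the Bmp7 UMIs in the ApcMin library and 10.1% in the VApcMinL library, where the subepithelial subset gave 61.2% against 13.1%. These shares follow the number of cells sorted as well as the level per cell.

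**Figure D1:**
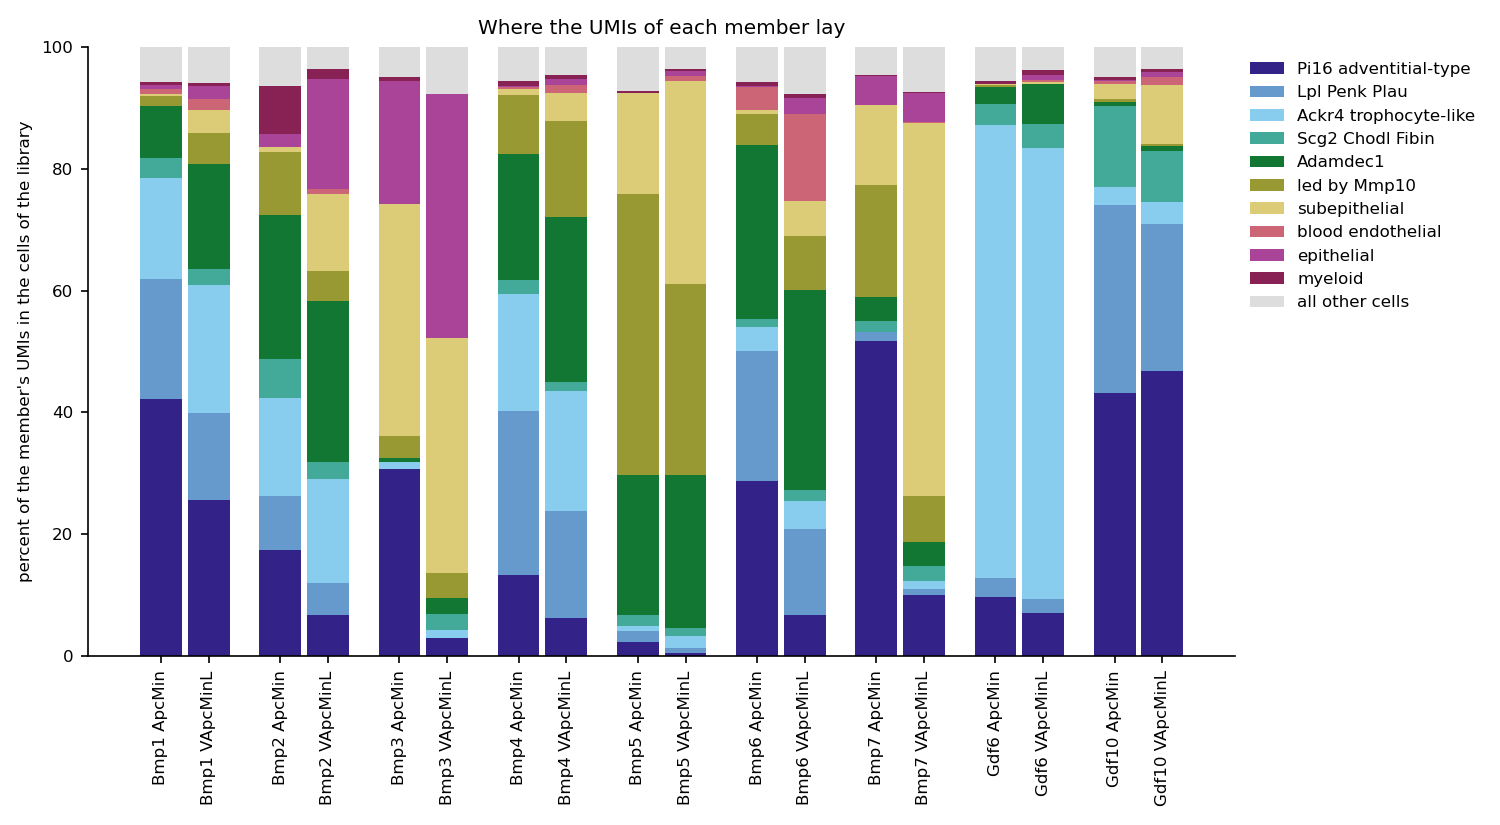
Stacked bars give the percent of each member's UMIs found in fibroblast subsets and other classes, with subsets led by Cd74 and Hbb-bt and the smaller classes joined as all other cells and with ApcMin and VApcMinL side by side. Fibroblast subsets fill most of every bar, and the largest part of the Bmp7 bar is the Pi16 subset in ApcMin (51.7%) and the subepithelial subset in VApcMinL (61.2%).

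Bmp2 and Bmp4, closely related ligands with broad roles in intestinal differentiation, shared their highest subset in the ApcMin library and not in the VApcMinL library. Bmp4 was highest in the Mmp10-led subset, at 655 CPM (613–699.5) in the ApcMin library and 599 CPM (573–627) in the VApcMinL library, followed by the Adamdec1 subset at 426 CPM (407–445.5) and 442 CPM (427–457). The Ackr4, Lpl Penk Plau and subepithelial subsets formed a middle group of 234 to 249 CPM in the ApcMin library, within which the intervals overlapped, and of 222 to 313 CPM in the VApcMinL library. The Pi16 subset was low at 71.5 CPM (67.6–75.6) and 71.8 CPM (66.8–77.1). The order was thus the same at its upper and lower ends in both libraries. Bmp2 had no such common order. In the ApcMin library it was highest in the Mmp10-led subset, at 249.9 CPM (224–278), a level carried by 21 cells with a Barx1 or Six2 UMI and at 66.3 CPM in the other 97, then in the Adamdec1 subset, at 172 CPM (160.1–184), and in smooth muscle-like cells, at 102.1 CPM (63.2–156). In the VApcMinL library the subepithelial subset led at 219 CPM (201–238), ahead of the Adamdec1 subset at 153 CPM (144–162), and the Mmp10-led subset stood at 66.5 CPM (57.8–76.0). The Pi16 and Lpl Penk Plau subsets held little Bmp2, between 27.4 and 33.2 CPM in both libraries.

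Bmp5, Bmp6 and Bmp7 belong to a shared subgroup of BMP ligands. Bmp5 was concentrated in the subepithelial subset, at 342 CPM (288–403) in the ApcMin library and 250.1 CPM (231–270.4) in the VApcMinL library, and in the Mmp10-led subset, at 282 CPM (255–311) and 185 CPM (170.3–201). The intervals of these subsets overlapped in the ApcMin library and not in the VApcMinL library. The ApcMin level of the Mmp10-led subset was carried by 21 cells with a Barx1 or Six2 UMI, at 745 CPM (649–852). The other 97 cells were at 158 CPM (135.5–184), below the interval of the subepithelial subset. Adamdec1 cells came next among the fibroblasts with marker names, at 42.4 and 63.1 CPM, and the Pi16 subset was near the bottom at 1.09 and 0.759 CPM. Outside the fibroblasts, smooth muscle-like cells held Bmp5 at 87.5 CPM (51.9–138) in the ApcMin library, from 18 UMIs, and at 25.8 CPM (11.8–48.9) in the VApcMinL library, from 9 UMIs. Bmp7 was also highest in the subepithelial subset, at 154 CPM (118–197) and 169.6 CPM (154–187), while the Mmp10-led subset had 63.9 CPM (51.3–78.8) and 16.6 CPM (12.5–21.7). In the ApcMin library the same 21 cells held Bmp7 at 179 CPM (134–235) and the other 97 at 33.1 CPM (23.2–45.9). Bmp6 followed another pattern and was shared by stroma and endothelium. It was at 74.4 CPM (66.7–82.8) and 45.4 CPM (40.7–50.5) in the Adamdec1 subset and at 42.4 CPM (30.9–56.7) and 44.0 CPM (37.2–51.7) in blood endothelial-like cells, so that the Adamdec1 subset exceeded the endothelium in the ApcMin library and could not be told from it in the VApcMinL library.

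Gdf6, a ligand best known from joint and skeletal development, was the most restricted member. Its level in the Ackr4 trophocyte-like subset, cells that are also known for the antagonist Grem1, was 92.0 CPM (85.1–99.3) in the ApcMin library and 96.5 CPM (89.9–103) in the VApcMinL library. This subset held 74.5% and 74.0% of all Gdf6 UMIs. The next fibroblast subset with a marker name, Scg2 Chodl Fibin, stood at 13.5 CPM (9.16–19.1) and 23.7 CPM (17.1–31.9), well outside the interval of the first.

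Bmp3 and Gdf10, also called Bmp3b, are the atypical members, and Bmp3 is known to oppose the signal of other BMPs. Gdf10 was high in several subsets: at 625 CPM (551–706) in the subepithelial and 624 CPM (592–657) in the Scg2 Chodl Fibin subset of the ApcMin library, which overlapped, then at 309.5 CPM (299–320.2) in the Lpl Penk Plau subset and 267 CPM (259.6–275) in the Pi16 subset. In the VApcMinL library the Scg2 Chodl Fibin subset, at 379.9 CPM (352–409), and the Pi16 subset, at 368 CPM (357–379.8), stood above the subepithelial subset at 321 CPM (299–343.5). Gdf10 was low in the Adamdec1 subset, at 14.9 and 9.25 CPM, the subset in which Bmp6 was highest. Bmp3 was scarce, with 163 and 555 UMIs in all cells, and peaked in the subepithelial subset at 151 CPM (116–194) and 85.2 CPM (74.2–97.4). Epithelial-like cells held Bmp3 at 11.4 CPM (7.82–16.0) and 14.9 CPM (13.0–17.0), and the few mesothelial-like cells at 24.5 CPM (8.99–53.3) and 47.9 CPM (31.6–69.7).

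Bmp1 is not a TGF-beta family ligand but a secreted metalloprotease, the procollagen C-proteinase. It was the most evenly spread member among the fibroblasts. Its level was 181 CPM (174–187) in the Pi16 subset and 171 CPM (161–180.5) in the Ackr4 subset of the ApcMin library, whose intervals overlapped, and 141 CPM (134–149) and 147 CPM (139–156) in the VApcMinL library. The subepithelial subset was lowest among the named subsets in the ApcMin library, at 73.2 CPM (49.4–105), and the Scg2 Chodl Fibin subset in the VApcMinL library, at 84.8 CPM (71.9–99.3), where its interval overlapped that of the subepithelial subset at 85.2 CPM.

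**Figure D2:**
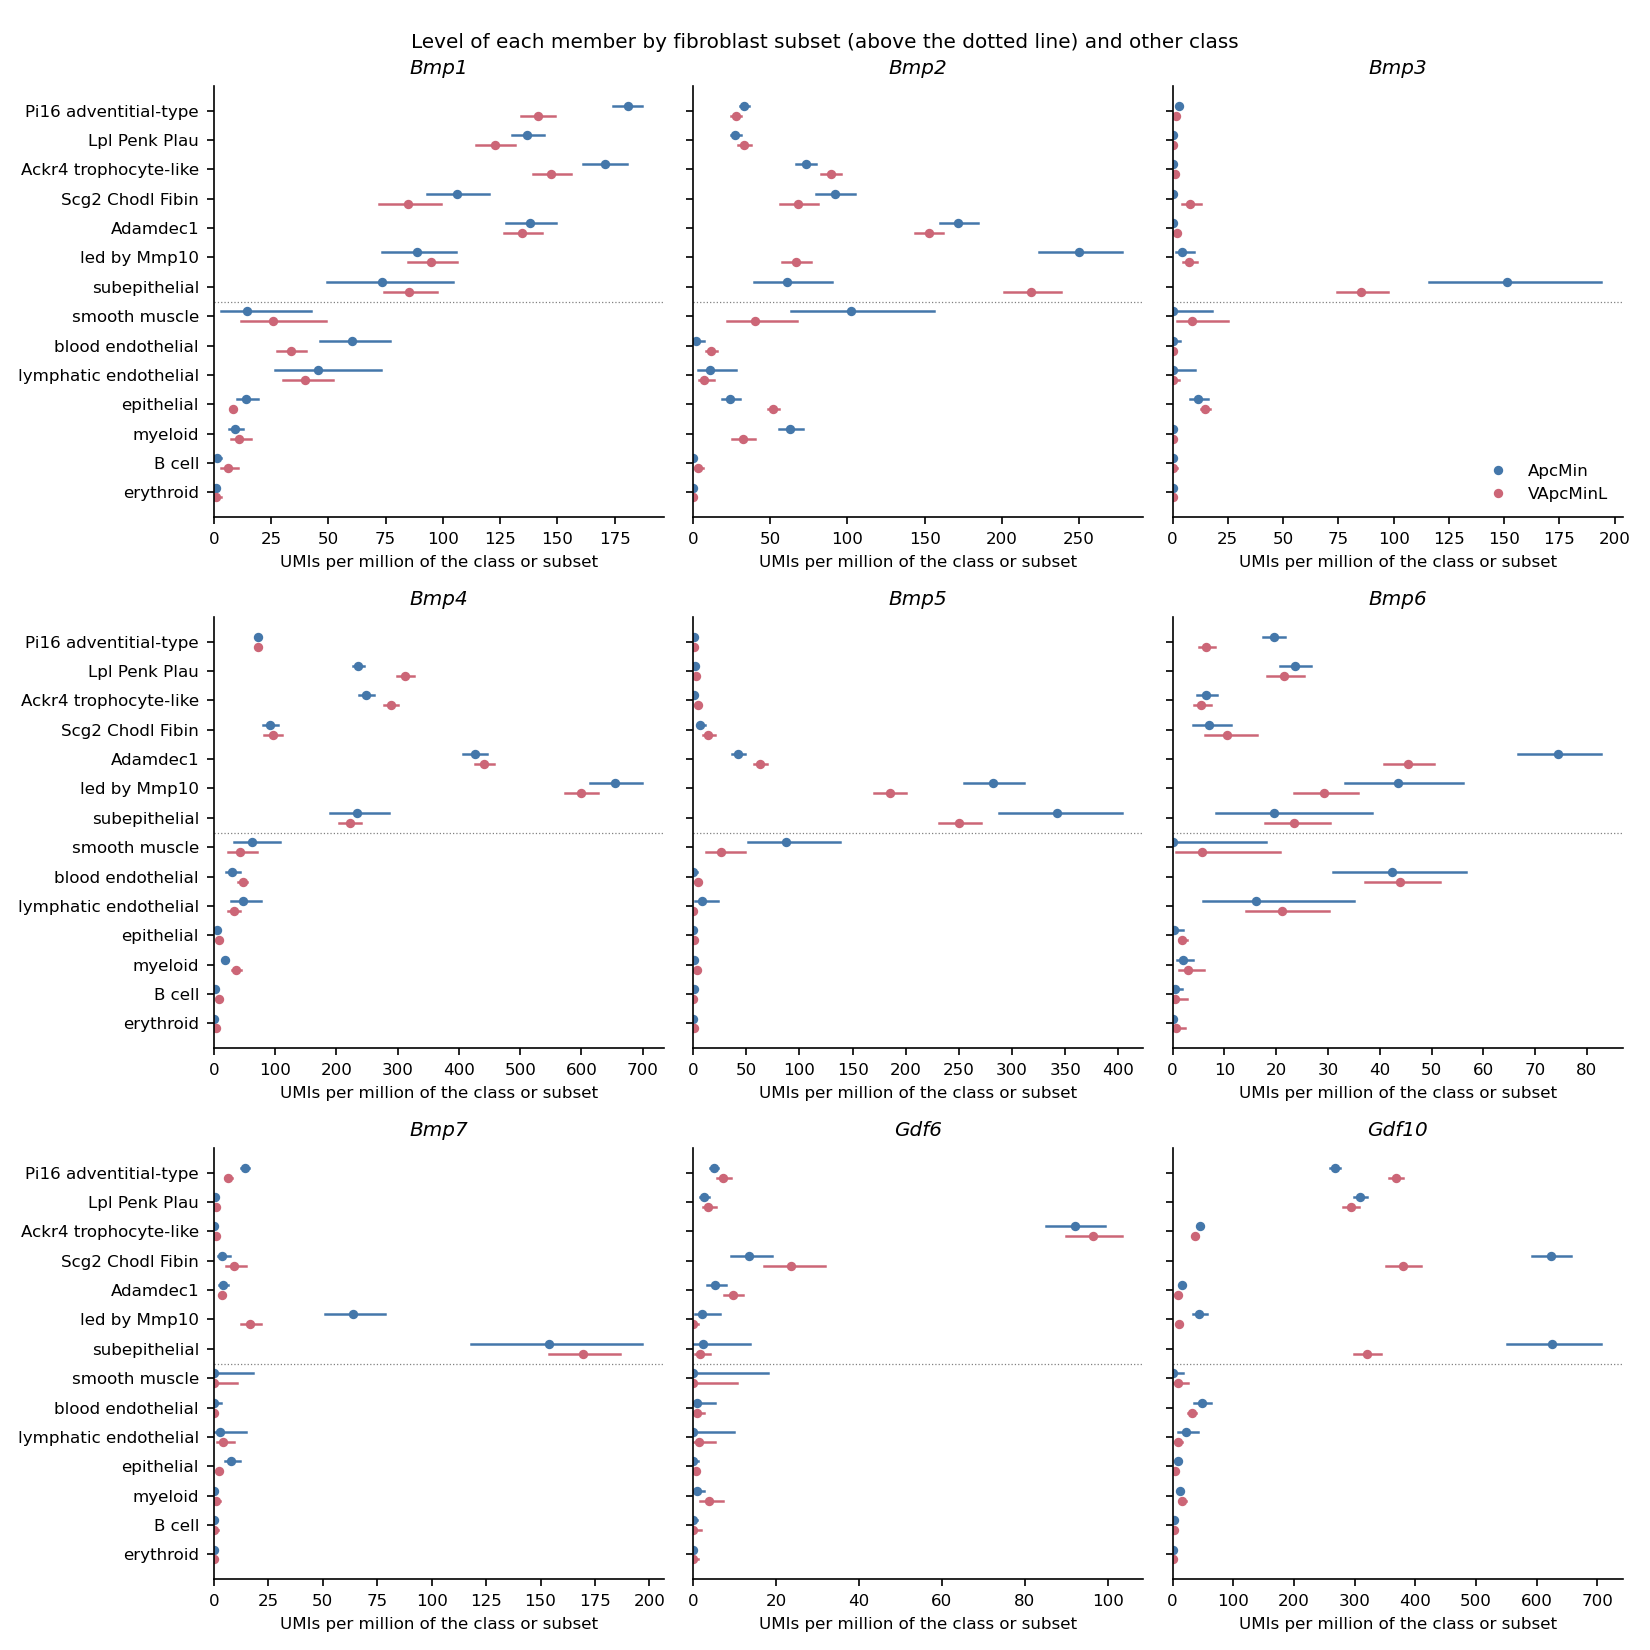
Points give the level of each member (CPM, linear axis with its own range for each member) in the fibroblast subsets other than those led by Cd74 and Hbb-bt and in the main other classes, with exact Poisson 95% intervals, ApcMin and VApcMinL in separate colors. Gdf6 stands out in the Ackr4 subset (92.0 and 96.5 CPM), and Bmp5, Bmp7 and Bmp3 in the subepithelial subset.

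The subepithelial subset was made of a pair of subclusters that differed in the level of several members. The subcluster led by Ednrb and Sox6 (10 ApcMin and 69 VApcMinL cells) held Bmp5 at 1106 CPM (930.3–1305) and 925 CPM (853–1002), Bmp7 at 498 CPM (382–637) and 545 CPM (489.7–605), and Bmp3 at 489.8 CPM (376–628) and 329.5 CPM (287–377). The subcluster led by Wif1 and Itgbl1 (23 and 135 cells) held Gdf10 at 897.5 CPM (790.5–1015) and 432 CPM (403–463) and no Bmp3 UMI, which allows up to 10.6 and 1.61 CPM. Bmp5 was at 0 and 14.5 CPM there, Bmp7 at 0 and 38.7 CPM (30.3–48.7), and Gdf10 at 15.8 CPM (1.91–57.1) and 1.54 CPM in the other subcluster. Bmp5, Bmp7 and Bmp3 were thus higher in the Ednrb subcluster and Gdf10 in the Wif1 subcluster in both libraries, although none of these genes was used in clustering. Bmp4 was found in both, at 482 and 427 CPM beside Ednrb and Sox6 and at 124 and 150.4 CPM beside Wif1 and Itgbl1. Bmp2 was at 94.8 and 174 CPM in the first and at 45.9 CPM (24.5–78.6) and 235 CPM (213–258) in the second. The promoters of Bmp5 (chr9:75775115-75775414, plus strand, GRCm38.p6) and Gdf10 (chr14:33923337-33923636, plus strand) are printed because these genes have the opposite pattern here. Each runs 5′ to 3′ from 250 bases before to 50 bases after the gene's start as RefSeq gives it, and capitals mark motif matches.
Bmp5: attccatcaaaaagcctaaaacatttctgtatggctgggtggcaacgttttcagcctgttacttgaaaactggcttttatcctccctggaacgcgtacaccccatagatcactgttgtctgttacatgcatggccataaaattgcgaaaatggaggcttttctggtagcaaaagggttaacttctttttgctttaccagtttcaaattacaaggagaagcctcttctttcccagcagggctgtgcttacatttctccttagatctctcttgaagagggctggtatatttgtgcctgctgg
Gdf10: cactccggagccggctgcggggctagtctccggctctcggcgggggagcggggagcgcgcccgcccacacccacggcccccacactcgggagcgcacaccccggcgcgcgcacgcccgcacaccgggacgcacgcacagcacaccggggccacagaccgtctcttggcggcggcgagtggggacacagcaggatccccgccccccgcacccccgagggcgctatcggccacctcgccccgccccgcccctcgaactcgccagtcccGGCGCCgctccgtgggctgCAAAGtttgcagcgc

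RefSeq promoters were matched for 4 of the 9 members, Bmp4, Bmp5, Bmp6 and Gdf10, and Bmp1, Bmp2, Bmp3, Bmp7 and Gdf6 are named only. The Bmp5 window has a GC content of 43.3% and the Gdf10 window of 77.3%, against 64.0% for Bmp4, 69.3% for Bmp6 and a median of 52.7% over all 32851 promoters. Windows were searched on both strands for CTTTG, the core of TCF/LEF sites (in 53.9% of all promoters), GGCGCC, a GC-rich Smad motif (11.9%), and TGTTTAC, a forkhead motif (3.65%). The Gdf10 window holds GGCGCC at bases 267 to 272 and CTTTG on the minus strand at bases 286 to 290, where the printed strand reads CAAAG. The windows of Bmp4, Bmp5 and Bmp6 hold none of these letter strings. A match of this kind describes the sequence and was not tested for binding or for a role in expression.

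**Figure D3:**
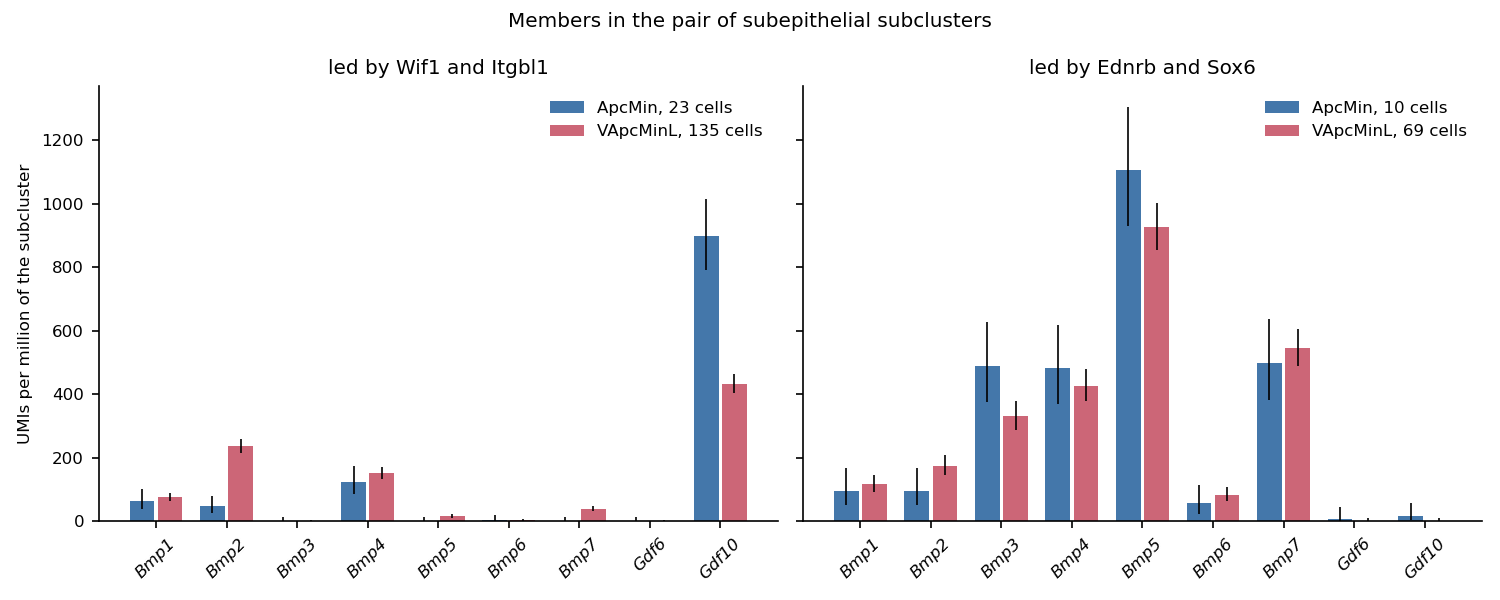
Bars with exact Poisson 95% intervals give the CPM of each member in the subepithelial subclusters led by Wif1 and Itgbl1 (23 ApcMin and 135 VApcMinL cells) and by Ednrb and Sox6 (10 and 69 cells). Gdf10 is high in the first, and Bmp5, Bmp7 and Bmp3 in the second.

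Between the libraries, 6 members were higher and 3 lower in VApcMinL fibroblast-like cells as a whole. Bmp5, at 17.2 CPM (16.0–18.4) in the ApcMin library and 43.9 CPM (41.9–45.9) in the VApcMinL library, had a log2 ratio of 1.35 (1.23 to 1.48). Bmp3, at 2.62 CPM (2.18–3.13) and 7.14 CPM (6.35–7.996), had a log2 ratio of 1.44 (1.13 to 1.76). These 2 of 9 members were past an absolute log2 ratio of 1, as were 6.89% of the 14187 genes with at least 50 UMIs, and both were higher in the VApcMinL library, as were 5.61% of those genes. Smaller positive ratios were those of Bmp7 (9.44 and 15.2 CPM, log2 ratio 0.68, 0.51 to 0.86), Bmp4 (194.5 and 275.3 CPM, 0.50, 0.46 to 0.54), Gdf6 (18.7 and 25.04 CPM, 0.42, 0.29 to 0.56) and Bmp2 (61.7 and 80.1 CPM, 0.38, 0.30 to 0.45). Bmp6 (23.5 and 19.1 CPM, -0.30, -0.43 to -0.16), Bmp1 (152.7 and 128.5 CPM, -0.25, -0.30 to -0.20) and Gdf10 (225.4 and 191.3 CPM, -0.24, -0.28 to -0.19) were lower. The members' median log2 ratio was 0.42, against 0.03 for all these genes.

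The make-up of the fibroblasts moved with these differences, since the subepithelial subset went from 0.984% to 5.52% of the cells and the Pi16 subset from 34.0% to 20.7%. With each subset given the same weight in both libraries, an alternative chosen after seeing the data, none of the 9 members was past the fold and their median log2 ratio was -0.13. Bmp5 then stood at -0.13, Bmp3 at -0.42, Bmp7 at -0.40 and Bmp2 at -0.12, all with the opposite sign, and Gdf10 at 0.03. Bmp4 stayed positive at 0.15 and Gdf6 at 0.19, and Bmp6 and Bmp1 stayed negative at -0.56 and -0.20. The higher Bmp3, Bmp5, Bmp7 and Bmp2 levels of the VApcMinL fibroblasts as a whole were therefore not seen once the subsets were weighted alike. With cells classed singly by their own markers no member was past the fold either, with Bmp5 at 0.70, Bmp3 at 0.22 and Bmp7 at -0.77. Without the cells that had a Barx1 or Six2 UMI, and with the subsets as they came, Bmp5 was at 1.62, Bmp3 at 1.90, Bmp7 at 0.87 and Bmp6 at -0.08.

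**Figure D4:**
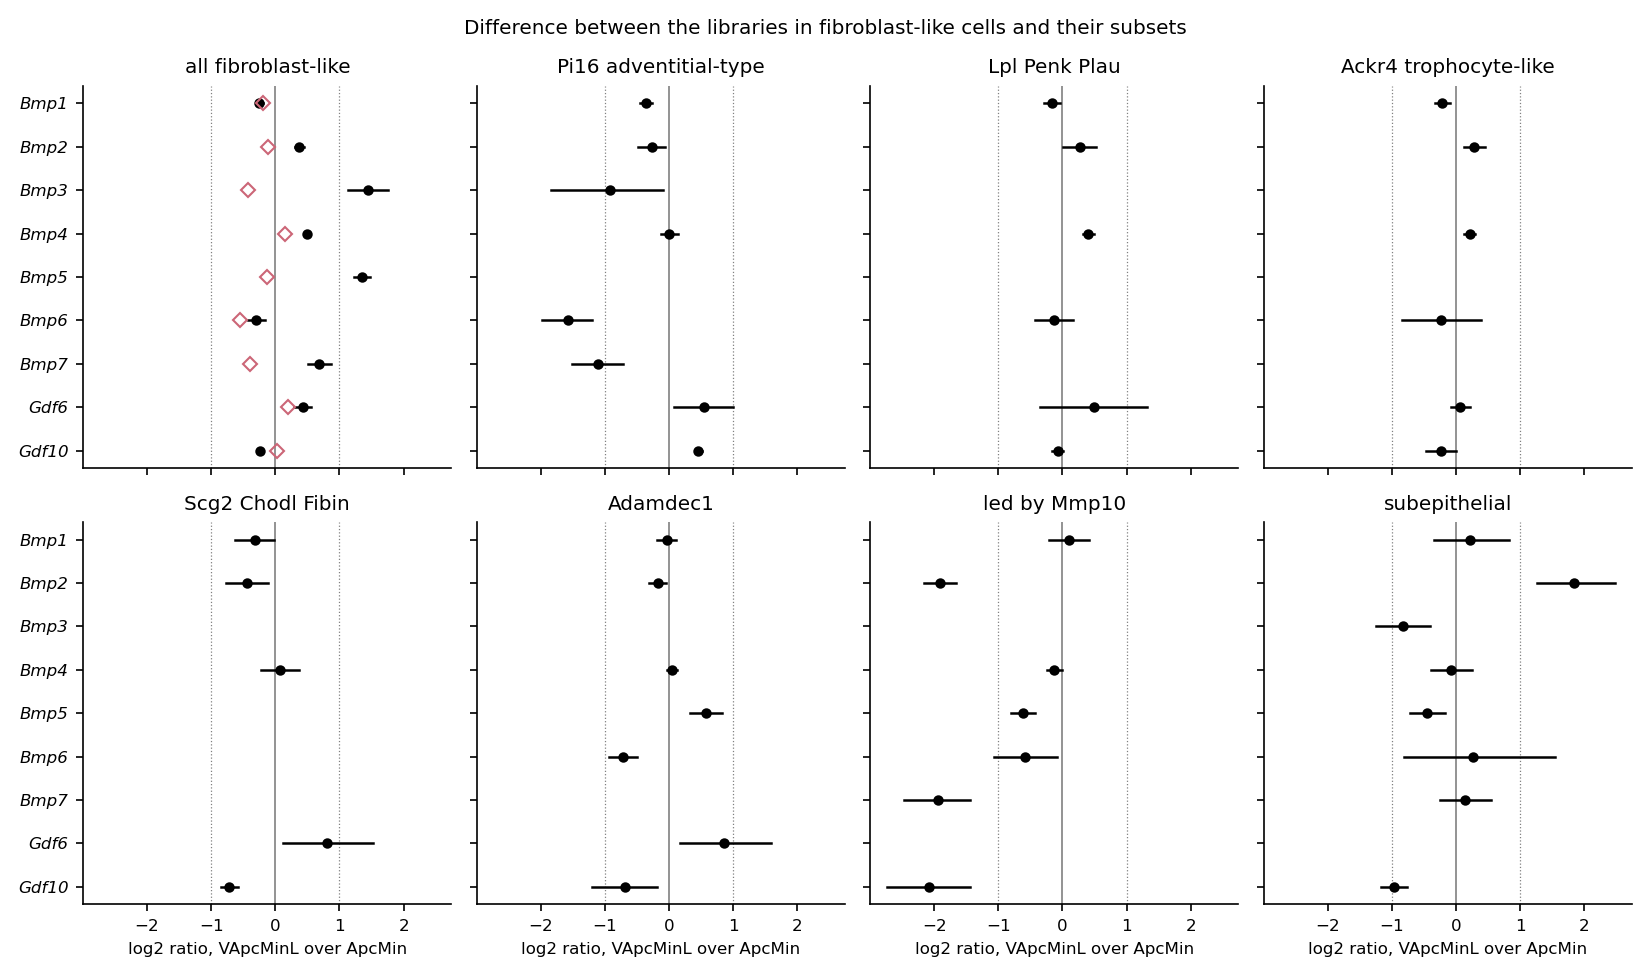
Points give the log2 ratio of CPM (VApcMinL over ApcMin) of each member with at least 50 UMIs in all fibroblast-like cells and in the subsets other than those led by Cd74 and Hbb-bt, with exact conditional 95% intervals, and open diamonds the ratio with the same weight of each subset in both libraries. Dotted lines mark log2 ratios of -1 and 1, and the diamonds of Bmp3 and Bmp5 lie at -0.42 and -0.13, below the points of the whole class at 1.44 and 1.35.

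Within subsets and classes, 69 pairs of a member and a unit had at least 50 UMIs and 30 cells per library, and 10 of them were past the fold, 3 higher and 7 lower in the VApcMinL library, beside 6.62% of 124366 pairs over all genes. In the fibroblast subsets alone it was 7 of 52 pairs, beside 4.19% over all genes. In the Lpl Penk Plau, Ackr4, Adamdec1 and Scg2 Chodl Fibin subsets no member was past the fold, with 6, 6, 7 and 5 members measured, where 2.86%, 2.09%, 3.5% and 4.94% of all genes were. Their ratios ran from near 0 to just short of the fold. Bmp4 in the Adamdec1 subset had a log2 ratio of 0.05 (-0.03 to 0.13) and Gdf6 in the Ackr4 subset a log2 ratio of 0.07 (-0.08 to 0.22). Some alternatives put members past the fold, Bmp6 (-1.30) and Gdf6 (1.54) in the Adamdec1 subset with cells classed singly by their own markers, and in the Scg2 Chodl Fibin subset Gdf10 (-1.01) with another rule for calling cells and Gdf6 (1.19) with the cells of most and fewest genes left out. Differences short of the fold whose intervals left out 0 were those of Bmp4 in the Lpl Penk Plau subset (0.41, 0.32 to 0.49), of Bmp6 in the Adamdec1 subset (-0.71, -0.93 to -0.49), of Bmp5 (0.58, 0.33 to 0.82) and Gdf6 (0.85, 0.17 to 1.59) there, and of Gdf6 (0.81, 0.11 to 1.53) and Gdf10 (-0.71, -0.85 to -0.58) in the Scg2 Chodl Fibin subset, beside smaller ones. Gdf10 in the Adamdec1 subset had a log2 ratio of -0.69 (-1.20 to -0.19), but at 14.9 and 9.25 CPM it was below empty droplets in both libraries. These barcodes of 10 to 100 UMIs contain free RNA and held Gdf10 at 31.3 CPM (23.9–40.2) and 159.5 CPM (138–183). The ratio was at 0.87 with the highest doublet scores left out, at 0.49 with cells classed by their own markers and at -0.24 without cells that had a Barx1 or Six2 UMI, and had no value with free RNA subtracted, so it is not read as a difference in expression. Gdf6 in the Adamdec1 subset was not clearly above empty droplets in the ApcMin library, nor was Bmp6 in the Lpl Penk Plau subset in either. Without the cells that had a Barx1 or Six2 UMI, 34.3% of the ApcMin cells of the Lpl Penk Plau subset, Bmp4 there was at 0.44, Bmp1 at -0.30 in place of -0.16, and Gdf10 (0.27 in place of -0.07) and Bmp6 (0.16 in place of -0.13) were on the other side of 0. With cells classed by their own markers Bmp4 there was at -0.07.

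In the Pi16 subset, 2 of 8 members were past the fold, Bmp6 and Bmp7, where 4.19% of all genes were. Bmp6 was at 19.6 CPM (17.5–21.8) and 6.55 CPM (5.09–8.28), with a log2 ratio of -1.58 (-1.98 to -1.20), and Bmp7 at 14.3 CPM (12.6–16.2) and 6.64 CPM (5.18–8.39), with a log2 ratio of -1.10 (-1.51 to -0.72). Both were lower in the VApcMinL library. Empty droplets held Bmp6 at 20.0 CPM (14.2–27.3) and 18.6 CPM (11.8–27.9) and Bmp7 at 4.62 CPM (2.11–8.76) and 8.10 CPM (3.88–14.9). The Bmp6 level of the Pi16 cells was thus not above that of empty droplets in the ApcMin library and was below it in the VApcMinL library, and the Bmp7 level was above it in the ApcMin library alone. Free RNA was estimated at 1.39% and 4.34% of the UMIs of these cells, and with it subtracted the ratios were -1.71 and -1.13. Without the cells that had a Barx1 or Six2 UMI, 24.0% of this subset in the ApcMin library, the ratios were -0.99 and -1.05, so that Bmp7 alone was still past the fold. Gdf10 was higher in the VApcMinL Pi16 cells, with a log2 ratio of 0.46 (0.40 to 0.52), and stood at 0.21 without those cells, while Bmp4 went from 0.01 to 0.56 and Gdf6 from 0.54 to 0.99. Neither Bmp6 nor Bmp7 was past the fold with finer subsets, where the Pi16 subset kept 219 and 111 cells: Bmp6 was then at -0.997, Bmp7 at -0.55 and Gdf10, at 1.09, was past the fold. With cells classed by their own markers Bmp6 was at -0.57 and Bmp7 at -0.43.

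In the subepithelial subset, 1 of 8 members was past the fold, Bmp2, where 8.88% of all genes were. It was at 61.0 CPM (39.5–90.1) in 33 ApcMin cells and 219 CPM (201–238) in 204 VApcMinL cells, a log2 ratio of 1.84 (1.27 to 2.48). Of the subepithelial subclusters that led by Wif1 had intervals that stood apart between the libraries, while those of the Ednrb subcluster, 49.0 to 166 and 143 to 209 CPM, overlapped, and the ApcMin value rests on 25 UMIs. Gdf10 had a log2 ratio of -0.96 (-1.17 to -0.75), Bmp3 of -0.83 (-1.24 to -0.40) and Bmp5 of -0.45 (-0.72 to -0.18). Within this subset these 3 members were thus at a lower level in the VApcMinL library, which had more of these cells, while the interval of Bmp7, at 0.14 (-0.24 to 0.55), held 0. These ratios depend on how the cells are classed: with cells classed singly by their own markers, Bmp2 was at -0.25, Gdf10 at 0.34, Bmp7 at -0.48 and Bmp5 at -0.82, and Bmp3 had no value. With the highest doublet scores left out Gdf10 was past the fold, at -1.05. Without cells that had a Barx1 or Six2 UMI, 24 ApcMin cells were left and no ratio was computed. In the clustering of all cells, a cluster led by Bmp5, Bmp7 and Nrg1 had 32 ApcMin and 76 VApcMinL cells, of which 9 and 69 were in this subset. In that cluster Bmp3 went the other way, at 139.5 CPM (106–180) in the ApcMin library and 307 CPM (269–348) in the VApcMinL library.

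In the Mmp10-led subset, 3 of 7 members were past the fold, all lower in the VApcMinL library, where 4.4% of all genes were past it. Bmp2 had a log2 ratio of -1.91 (-2.16 to -1.66), Bmp7 of -1.94 (-2.46 to -1.44) and Gdf10, at 43.6 CPM (33.3–56.1) and 10.4 CPM (7.12–14.5), of -2.07 (-2.73 to -1.44). The Bmp2 value turned on a few cells. In the 21 ApcMin cells of this subset that had a Barx1 or Six2 UMI, Bmp2 was at 939 CPM (830.4–1057), and in the other 97 at 66.3 CPM (51.8–83.4), beside 63.5 CPM (55.1–73.0) in 315 such VApcMinL cells. Without them the log2 ratio of Bmp2 was -0.06, that of Bmp5 0.19 in place of -0.61, that of Bmp7 -1.13 and that of Gdf10 -2.05. The Bmp7 and Gdf10 ratios were past the fold either way and that of Bmp2 was not. Gdf10 was not clearly above empty droplets in the ApcMin library and was below them in the VApcMinL library, and it had no value with the highest doublet scores left out. With free RNA subtracted, estimated at 2.61% and 3.12% of the UMIs of these cells, its log2 ratio was -2.99. What carries the Gdf10 ratio was not tested. Bmp2, at 249.9 CPM (224–278) and 66.5 CPM (57.8–76.0), and Bmp7, at 63.9 and 16.6 CPM, were above empty droplets in the ApcMin library, with intervals that overlapped theirs in the VApcMinL library. With cells classed by their own markers this subset does not exist and none of these ratios has a value. Of the 118 ApcMin cells, 22 belonged to a cluster led by Bmp5, Bmp7 and Nrg1 in the clustering of all cells, against 5 of 317 VApcMinL cells. In that cluster, with 32 and 76 cells, Bmp2 was at 622 CPM (549–702) and 179 CPM (151–212), and 65.6% and 1.32% of the cells had a Barx1 or Six2 UMI. Bmp5 did not differ in it beyond counting error, at 813 CPM (729.6–904) and 859 CPM (795–927). Bmp3, at 139.5 and 307 CPM, and Bmp7, at 277 CPM (229–331.5) and 497 CPM (449–549.5), were higher there in the VApcMinL library. Of 7 members measured in that cluster, 5 had a log2 ratio above 0 and 2 below.

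In the subset led by Cd74, where genes of immune cells lead, 1 of 5 members was past the fold, Bmp5, beside 5.09% of all genes. It was at 6.90 CPM (2.78–14.2) and 54.5 CPM (39.4–73.4), a log2 ratio of 2.98 (1.82 to 4.38) that rests on 7 UMIs in the ApcMin library. The ApcMin level was not above that of empty droplets, which held Bmp5 at 7.18 CPM (3.92–12.0) and 1.62 CPM (0.196–5.85), and free RNA was estimated at 30.6% and 1.33% of the UMIs of these cells. The ratio was between 2.90 and 3.03 under 5 alternatives and had no value under the others: a minimum of 5000 UMIs, another rule for calling cells, the highest doublet scores left out, finer subsets, clustering with the BMP genes, and cells classed by their own markers. The clusters these cells came from, in the clustering of all cells, differed between the libraries: cluster 0 gave 25 of 57 ApcMin and 12 of 61 VApcMinL cells, cluster 2 gave 5 and 18, and the cluster led by Bmp5 and Bmp7 gave 0 and 2. The part of this make-up in the ratio was not tested.

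Blood endothelial-like cells held Bmp6 above its level in empty droplets, where it was at 20.0 CPM (14.2–27.3) and 18.6 CPM (11.8–27.9). Bmp4 and Bmp1 were not above that level in both libraries. In blood endothelial-like cells Bmp4 was at 30.2 CPM (20.6–42.6) and 47.0 CPM (39.9–54.9), a log2 ratio of 0.64 (0.08 to 1.24), and Bmp1 at 60.3 CPM (46.5–77.0) and 33.5 CPM (27.6–40.3), a log2 ratio of -0.85 (-1.30 to -0.38). The Bmp4 intervals overlapped those of empty droplets, at 43.1 CPM (34.4–53.3) and 35.6 CPM (25.9–47.8). Bmp1 was above empty droplets in the ApcMin library, at 33.8 CPM (26.2–43.1) there, and below them in the VApcMinL library, at 57.5 CPM (44.9–72.5). Bmp6 differed between the libraries by less than counting error, at 0.05 (-0.44 to 0.57). None of 4 members was past the fold in this class, where 5.65% of all genes were. Bmp4 was past it, at 1.54, with the highest doublet scores left out, and Bmp1, at -1.25, with free RNA subtracted. Fibroblast markers moved with the Bmp1 ratio: the 10 listed, all detected and with Dcn the most abundant, summed to 7060 and 2218 CPM in blood endothelial-like cells, against 39151 and 35384 CPM in fibroblast-like cells. Their part in the differences was not tested. Bmp2 was scarce here, at 1.89 CPM (0.228–6.81) and 11.4 CPM (8.05–15.6), and Bmp5 had 0 and 15 UMIs. In lymphatic endothelial-like cells Bmp4 was at 48.4 CPM (28.7–76.5) and 32.7 CPM (23.8–43.7) and Bmp6 at 16.1 CPM (5.92–35.1) and 21.0 CPM (14.1–30.2). These intervals overlapped between the libraries and with those of empty droplets. Free RNA was estimated at 1.80% and 2.25% of the UMIs of these cells, and whether the levels are lymphatic expression was not tested.

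Outside stroma and endothelium, epithelial-like cells had 3 of 6 members past the fold, Bmp2, Bmp7 and Gdf10, in a class where 21.6% of all genes were. Bmp2 was at 24.1 CPM (18.8–30.5) in 48 ApcMin cells and 51.9 CPM (48.3–55.6) in 346 VApcMinL cells, a log2 ratio of 1.11 (0.75 to 1.48). Bmp7 was at 7.92 CPM (5.02–11.9) and 2.21 CPM (1.52–3.11), a log2 ratio of -1.84 (-2.65 to -1.01), and Gdf10 at 8.95 and 4.42 CPM, a log2 ratio of -1.02 (-1.69 to -0.30) that turned to 0.20 without cells that had a Barx1 or Six2 UMI. Empty droplets held Gdf10 at 31.3 and 159.5 CPM, above these levels in both libraries, and with free RNA subtracted, estimated at 0.584% and 3.34% of the UMIs of these cells, no Gdf10 ratio could be computed, so epithelial Gdf10 is not read as expression. Bmp2 in empty droplets was at 13.8 and 51.8 CPM and Bmp7 at 4.62 and 8.10 CPM, and with free RNA subtracted their ratios were 1.10 and -1.98. Neither was clearly above empty droplets in either library. The gate was set against epithelial cells and those that came through it held a median of 45055 and 41878.5 UMIs, above the median of all cells. With the highest doublet scores left out, Bmp2 was at 1.07 and Gdf10 at -0.14, and Bmp7 no longer had 50 UMIs. With the cells of most and fewest genes left out, Bmp2 was at 0.27 and Gdf10 at -2.85, and without cells that had a Barx1 or Six2 UMI Bmp4 was past the fold, at 2.07 in place of 0.51. The calls for Bmp2 and Gdf10 in this class were thus lost under some alternatives. Myeloid-like cells, led by the mast cell proteases Mcpt1 and Mcpt2, had Bmp2 at 63.0 CPM (55.6–71.2) and 32.1 CPM (25.3–40.1) and Bmp4 at 18.3 CPM (14.4–23.0) and 36.2 CPM (29.0–44.7), the latter not clearly above empty droplets in either library. Bmp2 was above them in the ApcMin library but not in the VApcMinL library, where they held it at 51.8 CPM (39.9–66.2). Their log2 ratios, -0.97 and 0.98, fell just short of the fold, and none of 4 members was past it in that class, where 5.03% of all genes were. This count depends on the processing. Free RNA was estimated at 11.5% and 48.5% of the UMIs of these cells, and with it subtracted Bmp2 was at -2.37 and Bmp4 at 1.29. Bmp2 was at -1.31 with the highest doublet scores left out, where Bmp4 had no value, and at -1.12 with the cells of most and fewest genes left out. Bmp4 was at 1.10 with scaling by the median of ratios and at 1.77 without cells that had a Barx1 or Six2 UMI. With cells classed by their own markers Bmp4 (1.28), Bmp1 (1.29) and Gdf10 (1.21) were past the fold. In 116 ApcMin cells of the T cell or innate lymphoid class, 37 Bmp2 UMIs came from 1.72% of the cells.

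The share of fibroblast-like cells with a UMI was compared after thinning each cell to 3000 UMIs, which left out no cell. It was 38.8% and 49.4% for Bmp4, 13.0% and 17.7% for Bmp2, 3.25% and 8.98% for Bmp5 and 0.537% and 1.33% for Bmp3, each larger in the VApcMinL library, as it was for Bmp7 (1.61% and 2.68%) and Gdf6 (4.56% and 5.47%). It was smaller there for Bmp1 (33.9% and 30.8%), Gdf10 (30.8% and 24.9%) and Bmp6 (7.01% and 6.52%). The directions were those of the CPM for all 9 members. Unthinned they were so for 8 of them, since Bmp7 had a UMI in 6.71% and 6.28% of the cells, the opposite direction. Bmp4 unthinned had a UMI in 68.0% and 76.3% of these cells, at median depths of 13317 and 10643 UMIs. In the erythroid-like class, where no Bmp4 is expected, the share was 0.732% and 1.91%, at 9396.5 and 7366.5 UMIs, far below the fibroblast share.

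Free RNA differed between the libraries. In empty droplets of 10 to 100 UMIs, Gdf10 was at 31.3 CPM (23.9–40.2) in the ApcMin library and 159.5 CPM (138–183) in the VApcMinL library, Bmp2 at 13.8 and 51.8 CPM, Bmp4 at 43.1 and 35.6 CPM and Bmp5 at 7.18 and 1.62 CPM. The free RNA estimated in fibroblast-like cells from hemoglobin and immunoglobulin genes was 4.87% and 12.5% of their UMIs, and in blood endothelial-like cells 6.12% and 23.5%. Subtracting it left the fibroblast-wide log2 ratios of Bmp5 and Bmp3 both at about 1.5. The blood endothelial Gdf10 level was 48.1 CPM (35.8–63.2) in the ApcMin library, which overlapped that of empty droplets, and 31.4 CPM (25.7–38.0) in the VApcMinL library, below them, and is not read as expression. Over all fibroblast-like cells the levels of Bmp6 and Bmp7 in both libraries and that of Bmp3 in the VApcMinL library had intervals that overlapped those of empty droplets.

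Of the 50 other BMP pathway genes listed, 40 had at least 50 UMIs in fibroblast-like cells, and 3 of these were past the fold, a count near the background of 6.89% of all genes. All 3 were higher in the VApcMinL library, among them the target Id1 and the antagonist Chrdl2. Id1 was below empty droplets in both libraries, and Chrdl2 was not clearly above them in the ApcMin library. None of 10 receptors was past the fold, with 5 above and 5 below 0 and a median log2 ratio of 0.01, from -0.48 (-0.55 to -0.40) for the co-receptor Rgmb to 0.29 (-0.19 to 0.77) for Bmpr1b. The type I receptor Acvrl1 was at -0.38 (-0.45 to -0.32). None of 4 signal mediators was past the fold, with a median of 0.08. Bmpr1a, a type I receptor, was at 122 and 109 CPM and Bmpr2, the type II receptor, at 198 and 202 CPM. Among targets and feedback genes, 8 of 9 measured were above 0, with a median of 0.22, and 1 was past the fold. Id1 was at 28.8 CPM (27.3–30.4) and 60.9 CPM (58.6–63.4), a log2 ratio of 1.08 (0.98 to 1.18), Id3 at 382 and 538 CPM (0.50), Id4 at 20.4 and 30.2 CPM (0.56) and Smad7, an inhibitor induced by the pathway, at 83.6 and 106 CPM (0.35). Empty droplets held Id1 at 144.6 CPM (128.2–162.5) and 78.5 CPM (63.7–95.8), above the fibroblast level in both libraries. With free RNA subtracted, estimated at 4.87% and 12.5% of the UMIs of these cells, the Id1 ratio was 1.35. The part of free RNA in the Id1 ratio was not tested further. Id3 and Id4 were above empty droplets in both libraries. Smad7 was above them in the VApcMinL library and below them in the ApcMin library, where they held it at 101.0 CPM (87.4–116.2). Msx1 was the exception, at 12.5 and 8.91 CPM (-0.49), but it was not above empty droplets in either library, which held it at 12.3 and 17.0 CPM. In the subcluster led by Wif1 and Itgbl1, Id1 was at 109.5 and 296 CPM, and the ApcMin level was not above that of empty droplets.

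The 12 antagonists measured were split, 5 above and 7 below 0, with a median of -0.04. Grem1, the antagonist of the crypt base, was at 655 and 803 CPM (0.29) and was concentrated in the Ackr4 subset at 2993 and 2752 CPM, the same cells that held Gdf6. Chrdl2 was scarce, at 1.98 and 3.97 CPM (log2 ratio 1.0, 0.63 to 1.39). Fstl1 and Fst were lower in the VApcMinL library, at 855 and 572 CPM (-0.58) and at 86.4 and 63.4 CPM (-0.45). Pcolce and Pcolce2, which enhance the C-proteinase activity of Bmp1, were lower as well, at 623 and 441 CPM (-0.50) and at 322 and 192 CPM (-0.74), the same direction as Bmp1 itself. With each subset given the same weight in both libraries, Chrdl2 was the pathway gene past the fold, at 1.02, and without the cells that had a Barx1 or Six2 UMI it was Id1, at 1.16. Chrdl2 was not past the fold with at most 10% mitochondrial UMIs or with scaling by the median of ratios. Nor was it with the highest doublet scores, the cells of most and fewest genes, or the Cd74-led and Hbb-bt-led subsets left out. Among other ligands of the family only Gdf11, at 11.2 and 13.6 CPM, and Gdf15, at 17.2 and 21.1 CPM, reached 50 UMIs of 8 listed.

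In blood endothelial-like cells the receptors Eng (865 and 1009 CPM), Acvrl1 (256 and 279.5 CPM) and Bmpr2 (476 and 581 CPM) were detected, and 0 of 8 receptors measured were past the fold. Over all lists 5 of the 27 pathway genes measured there were, beside 5.65% of all genes. Of 9 targets measured there, Atoh8, at 13.2 and 27.5 CPM, was past it with a log2 ratio of 1.06 (0.24 to 1.99). Of the other lists Gdf15 (1.15) was past it too, as were Grem1 (-1.0), Pcolce (-1.75) and Pcolce2 (-1.85), which were lower in the VApcMinL library as the fibroblast markers were. Id1 was at 591 and 519.9 CPM (-0.18) and Id3 at 911 and 737 CPM (-0.31), so neither was higher in the VApcMinL blood endothelium. In fibroblasts both had a higher level in the VApcMinL library, but fibroblast Id1 was below empty droplets in both libraries. In the 38 and 175 lymphatic endothelial-like cells Id1 and Id3 were higher in the VApcMinL library, Id1 at 48.4 and 94.3 CPM (0.96, 0.25 to 1.76) and Id3 at 59.2 and 240.9 CPM (2.03, 1.40 to 2.72), as was Id2 at 16.1 and 52.3 CPM (1.70, 0.50 to 3.19). None of the Id levels of these lymphatic cells was clearly above empty droplets, which held Id1 at 144.6 and 78.5 CPM, Id2 at 80.5 and 136 CPM and Id3 at 229.7 and 238 CPM. Grem1 was higher there too, at 24.2 and 122.6 CPM (2.34), while the fibroblast markers summed to 5266 and 2923 CPM. Free RNA was estimated at 1.80% and 2.25% of the UMIs of the lymphatic cells. The part of free RNA and fibroblast transcripts in these ratios was not tested.

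**Figure D5:**
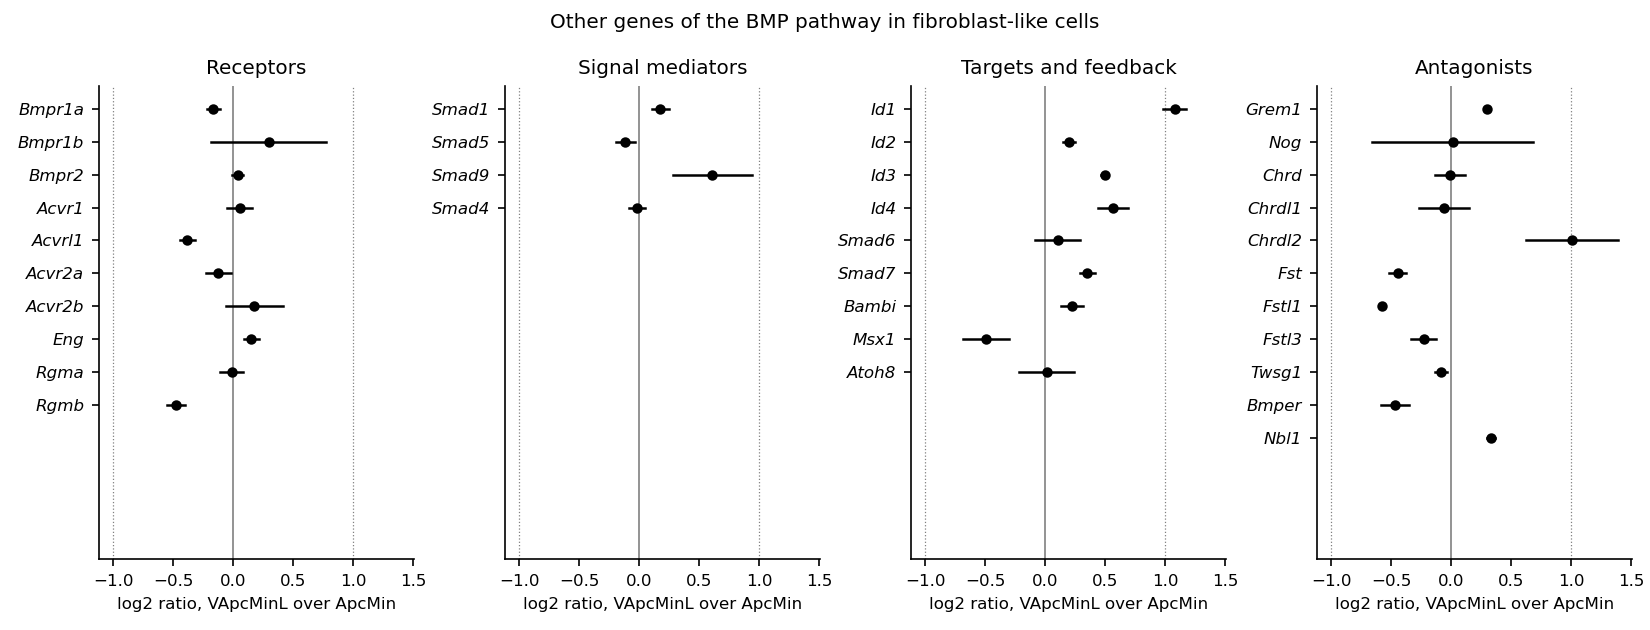
Points give log2 ratios of CPM (VApcMinL over ApcMin) in fibroblast-like cells with exact conditional 95% intervals for the genes reported among BMP receptors, signal mediators, targets and antagonists. Receptors lie from -0.48 (Rgmb) to 0.29 (Bmpr1b), and Id1 (1.08) and Chrdl2 (1.0) lie at or past the line at 1.

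Across 36 points, the named classes other than fibroblast-like cells and the named fibroblast subsets of both libraries, each member was compared with 11788 genes by Pearson's r of log2(CPM + 1); the points share libraries and depth, and no p was computed. The Mmp10-led and other unnamed subsets were not among the points. Bmp4 was most like Col6a1 (0.965), Cygb (0.958) and Bgn (0.954), and Bmp1 like Fkbp9 (0.967) and Nfix (0.962). Bmp2 was nearest Ifitm1 (0.893), Lrig1 (0.836) and St3gal3 (0.821), and Bmp6 nearest Gja1 (0.881), Cd34 (0.856) and Ltbp4 (0.855). The subepithelial ligands had company of their own: Bmp5 with Hpse2 (0.895), Foxf2 (0.877) and Ednra (0.868), Bmp3 with Cybrd1 (0.780), Fgf9 (0.780) and Plekha7 (0.771), and Bmp7 with Tmem158 (0.757), Bmp3 (0.742) and Fgf9 (0.729). Gdf6 was nearest Isl2 (0.838), Nfasc (0.835) and Chodl (0.830), and Gdf10 nearest Inmt (0.918), Pdgfra (0.894) and Penk (0.888). Among the members themselves r was highest for Bmp1 with Bmp4 (0.868) and lowest for Bmp3 with Gdf6 (0.092).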

How the data were processed

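The deposited files held the unfiltered UMI counts of 6794880 barcodes and 31053 genes per library, which the authors made with Cell Ranger and the GRCm38 (mm10) reference; the submitters' processing notes name Cell Ranger 2.1.1 and Seurat 3.1.1, and the matrix headers name another Cell Ranger release. Libraries were made with the 10x 3′ kit from sorted DAPI-, Ter119-, Epcam- and CD45-negative cells and grouped by the genotype in the labels. Cells were barcodes with at least 3000 UMIs and at most 20% mitochondrial UMIs. After the methods of the study, ln of counts per 10000 was integrated over 1554 variable genes (Seurat 5.3.0, R 4.3.3; canonical correlation anchors, 30 dimensions; 20 principal components; 20 neighbors; Louvain resolution 0.2), with all BMP list genes left out, and fibroblast-like cells were clustered again by the same steps. Clusters were named from marker lists by a rule set after the clusters were seen: the name came from the list with most genes among the top 10 by fold or, where no list had 2, from that with the largest difference in detection from other clusters, as for the epithelial cluster, with 0 markers among its top 10. At least 3 own markers had to be detected in 25% of cells, and genes of another lineage could neither outnumber the own ones nor reach a detection difference of 0.25. A subset also needed 1 own marker among the top 10 and a detection difference of 0.1. Names were rebuilt here, which alone can make values differ from those of the study.

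UMIs were summed per class and library with Python 3.11.15, numpy 2.4.6, scipy 1.17.1 and pandas 2.3.3. A gene was counted at 50 UMIs over both libraries and a class at 30 cells per library, and past the fold means an absolute log2 ratio of 1 or more. Where a count was 0, the limit given is that of 3 UMIs. The code for ratios and intervals was tested on simulated data. For shares of cells, each cell was thinned to 3000 UMIs and no cell was shallower. Empty droplets were 54398 and 42428 barcodes of 10 to 100 UMIs. Doublets were kept, since the Scrublet threshold called 0 and 79 cells, and an alternative left out the 348 and 345 highest scores (scanpy 1.11.5). Genes named are the members, the genes of the pathway and other lists, Lef1, leading markers and, for each member with at least 200 UMIs, the 3 most alike of the genes with at least 500 UMIs; some genes these rules select are not reported here. The members and lists were chosen with earlier results of these data known. In all, 11 alternatives were tried and 4 more were chosen after seeing the data. Promoters came from RefSeq and gene positions from the GENCODE annotation of GRCm38.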

Additional observations from a re-analysis of the deposited data

Results flagged for a closer look

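Bmp2 was past the fold in opposite directions in different cells of the same libraries. Its log2 ratio, VApcMinL over ApcMin, was 1.84 in the subepithelial subset and 1.11 in epithelial-like cells, but -1.91 in the subset led by Mmp10. The difference between these ratios was not tested. In epithelial-like cells Bmp2 was not clearly above empty droplets in either library. In the Mmp10-led subset its interval overlapped theirs in the VApcMinL library. Without the cells that had a Barx1 or Six2 UMI, the ratio in the Mmp10-led subset was -0.06 and that in epithelial-like cells 1.12. With cells classed singly by their own markers, which leaves no Mmp10-led subset, that in the subepithelial subset was -0.25, and with the cells of most and fewest genes left out that in epithelial-like cells was 0.27.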

How the results depend on the processing

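Of 812 single log2 ratios recomputed under 14 alternatives, 728 stayed within the counting interval of the value reported. In all 35 had the opposite sign, 17 of them with a reported interval that left out 0. Of values past the fold 17 were no longer past it and 20 more came to be past it. Without thinning, all 18 shares of cells with a UMI lay outside their intervals, and 5 members in place of 6 had the larger share in the VApcMinL library. Over 12 alternatives the fibroblast-wide log2 ratio ran from -0.13 to 1.62 for Bmp5, from -0.42 to 1.90 for Bmp3, from -0.77 to 0.87 for Bmp7, from -0.12 to 0.41 for Bmp2 and from -0.29 to 0.03 for Gdf10. Bmp4 (0.15 to 0.61) and Gdf6 (0.19 to 0.64) were positive and Bmp1 (-0.28 to -0.20) and Bmp6 (-0.61 to -0.08) negative in every one of them. A minimum of 5000 UMIs, a limit of 10% mitochondrial UMIs and clustering with the BMP genes left the 77, 72 and 72 values they gave inside their intervals, but gave none for 1, 6 and 6 of the 78, among them all of the epithelial-like cells under the mitochondrial limit, where 7 pairs of a member and a unit were past the fold in place of 10.

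With each subset given the same weight in both libraries, an alternative chosen after seeing the data, 0 members were past the fold in place of 2, 1 pathway gene (Chrdl2) in place of 3, and the members' median was -0.13 in place of 0.42. Bmp2 (-0.12), Bmp3 (-0.42), Bmp5 (-0.13), Bmp7 (-0.40) and Gdf10 (0.0319) changed sign there, by construction without the difference in subset shares. With cells that had a Barx1 or Six2 UMI left out, also chosen after seeing the data, 1 pathway gene (Id1) was past the fold, and Gdf10 in epithelial-like cells (0.20) and Bmp5 in the Mmp10-led subset (0.19) changed sign. In the Mmp10-led subset without the cells of the Bmp5 and Bmp7 cluster, a further choice made after seeing the data, Bmp2 was at -0.51 and Bmp7 at -1.49.

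With cells classed singly by their own markers, 0 members were past the fold, the median was 0.22, 1 pathway gene (Chrdl2) was past the fold, 611 genes in place of 977 were, 11 of 18 member and library pairs had most of their UMIs in fibroblast-like cells in place of 18, and 4 of 18 had the same highest class. Of 16 sign changes there, those of values whose interval left out 0 were Bmp7 in fibroblast-like cells (-0.77), Bmp2 in the Ackr4 (-0.0276), Lpl Penk Plau (-0.0354), Pi16 (0.0065) and subepithelial (-0.25) subsets, Bmp4 in the Lpl Penk Plau subset (-0.0685), Gdf6 in the Pi16 subset (-0.0532) and Gdf10 in the Adamdec1 (0.49) and subepithelial (0.34) subsets. With the highest Scrublet scores left out, Gdf10 in the Adamdec1 subset was at 0.87 in place of -0.69. With free RNA subtracted, 19 such pairs were past the fold, those left with no UMI in a library included. The cause of these changes was not tested.

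With 1 library per genotype, none of the differences has a replicate. Depth limits the small units of the ApcMin library, such as 7 mesothelial-like, 35 smooth muscle-like, 38 lymphatic endothelial-like and 33 subepithelial cells, the Bmp5 ratio of the Cd74-led subset, with 7 ApcMin UMIs, and Bmp3, with 163 ApcMin UMIs in all cells. The share of cells with a Barx1 or Six2 UMI, the subset shares and the free RNA differed between the libraries together with the genotype and cannot be told apart from it.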
